A study of Mus musculus with 8 samples.

Results

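Voltage-gated sodium channels carry the inward current of the action potential. Each channel has 1 large pore-forming alpha subunit and smaller beta subunits that change its gating and its placement in the membrane. In the forebrain, Scn8a and Scn2a encode the alpha subunits found along the axon initial segment of excitatory neurons, Scn1a the one best known from inhibitory interneurons, and Scn3a one that is most abundant before birth. Scn2b and Scn4b encode beta subunits that are held to the alpha subunit by a disulfide bond, and Scn3b encodes one that binds without it. Scn4b is abundant in the striatum, and is known for a role in the resurgent sodium current.

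The genes described are the 7 sodium channel subunit genes Scn1a, Scn2a, Scn3a, Scn8a, Scn2b, Scn3b and Scn4b. They were picked out by gene name. All 7 were found among 13130 genes, and their 18 listed transcripts among 24526 transcripts. The animals were C57BL/6 mice of 12 weeks, and the tissue was orbital frontal cortex, part of the prefrontal cortex. The knockdown group, named sh-circHomer1/sh-Homer1b, held 4 libraries, and the control group, sh-scramble, held 4. CircHomer1 is a circular RNA made from the gene Homer1, and Homer1b is a long linear product of the same gene, which encodes a scaffold protein of excitatory synapses. The labels do not say which hairpin each knockdown library received, how it was delivered, which cells took it up, or how many animals a library came from. Values are FPKM, sequenced fragments divided by transcript length and by the library's mapped total, so levels may be compared between genes per length. No read counts were at hand, so the depth is unknown and no counting interval is given.

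Homer1 was at 18.9, 16.5, 16.6 and 19.3 FPKM in the knockdown libraries, against 23.5, 26.3, 21.3 and 18.9 FPKM in the control libraries, a log2 difference of -0.31 (limma adjusted p = 0.273). Control replicate 4 lay within the knockdown range. Markers of cortical excitatory neurons were present in every library: Slc17a7, the vesicular glutamate transporter of these cells, was at 128 to 149 FPKM in knockdown libraries and 102 to 153 FPKM in control libraries. Transcripts of striatal projection neurons were present too and varied widely, with the 22 tested of 24 listed markers summing to 252 to 616 FPKM in knockdown libraries and 293 to 973 FPKM in control libraries. Knockdown replicate 4 stood apart. Its 4 tested olfactory bulb markers averaged 1.65 log2 units above their 8-library mean, while the other 7 libraries lay between -0.35 and -0.11. Cdhr1, a cadherin of olfactory bulb output neurons, was at 9.93 FPKM in it and at 0.421 to 1.05 FPKM elsewhere. Values without this library are given beside the results that it moved most. No gene of 13004 passed an adjusted p of 0.05 (0%), and 1842 (14.2%) had an unadjusted p under 0.05.

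Listed transcripts of the alpha subunit genes carry different alternative exons. Scn2a and Scn8a each have a pair of neighbouring copies of coding exon 5, of which a transcript carries 1. The upstream copy is known as the neonatal form and the downstream copy as the adult form. The downstream copy is shown because the transcripts that carry it differed in share between libraries. It is 92 bases long in both genes and differs between them at 7 bases, an identity of 92.4%. The capitals mark those bases, on GRCm38 and read from GENCODE M21 transcripts.
Scn2a downstream copy, chr2:65682690-65682781, plus strand, in Scn2a-204 and Scn2a-205: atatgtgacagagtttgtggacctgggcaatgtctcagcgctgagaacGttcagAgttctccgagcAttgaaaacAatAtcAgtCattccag
Scn8a downstream copy, chr15:100959603-100959694, plus strand, in Scn8a-203, Scn8a-204 and Scn8a-205: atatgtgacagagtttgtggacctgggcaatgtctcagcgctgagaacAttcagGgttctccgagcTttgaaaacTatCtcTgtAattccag

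The listed Scn1a transcripts differ in where coding exon 11 ends, with the longest end in Scn1a-203, a middle one in Scn1a-201 and Scn1a-204 and the shortest in Scn1a-202. Scn8a has a like choice in its own coding exon 11. The longer form is in Scn8a-204 only among the listed transcripts, and its 30 added bases are in capitals, on the plus strand.
Scn8a-204, chr15:100984016-100984075: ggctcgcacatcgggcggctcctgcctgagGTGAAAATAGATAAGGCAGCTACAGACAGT
Scn8a-201, Scn8a-203 and Scn8a-205, chr15:100984016-100984045: ggctcgcacatcgggcggctcctgcctgag

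By mean level over the 8 libraries, the beta subunit genes Scn2b at 67.2 FPKM and Scn4b at 64.8 FPKM came first. Scn8a at 22.5, Scn2a at 17.6, Scn1a at 8.57, Scn3a at 6.31 and Scn3b at 3.01 FPKM followed. Scn2b and Scn4b did not keep a fixed order: Scn2b was the higher in 4 of 4 knockdown libraries and in 1 of 4 control libraries. These orders are of the deposited gene values. Such values came to 0.517 to 0.586 of the summed listed transcripts for Scn2a and 0.591 to 0.726 for Scn8a. By gene value, Scn8a exceeded Scn2a in 8 of 8 libraries, although their ranges overlapped. With the listed transcripts summed, Scn2a was the higher in knockdown replicates 3 and 4. By gene value, Scn2a exceeded Scn1a, and Scn3a exceeded Scn3b, in 8 of 8 libraries with ranges that did not overlap. Scn1a exceeded Scn3a in 2 of 4 knockdown and 4 of 4 control libraries.

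**Figure D1:**
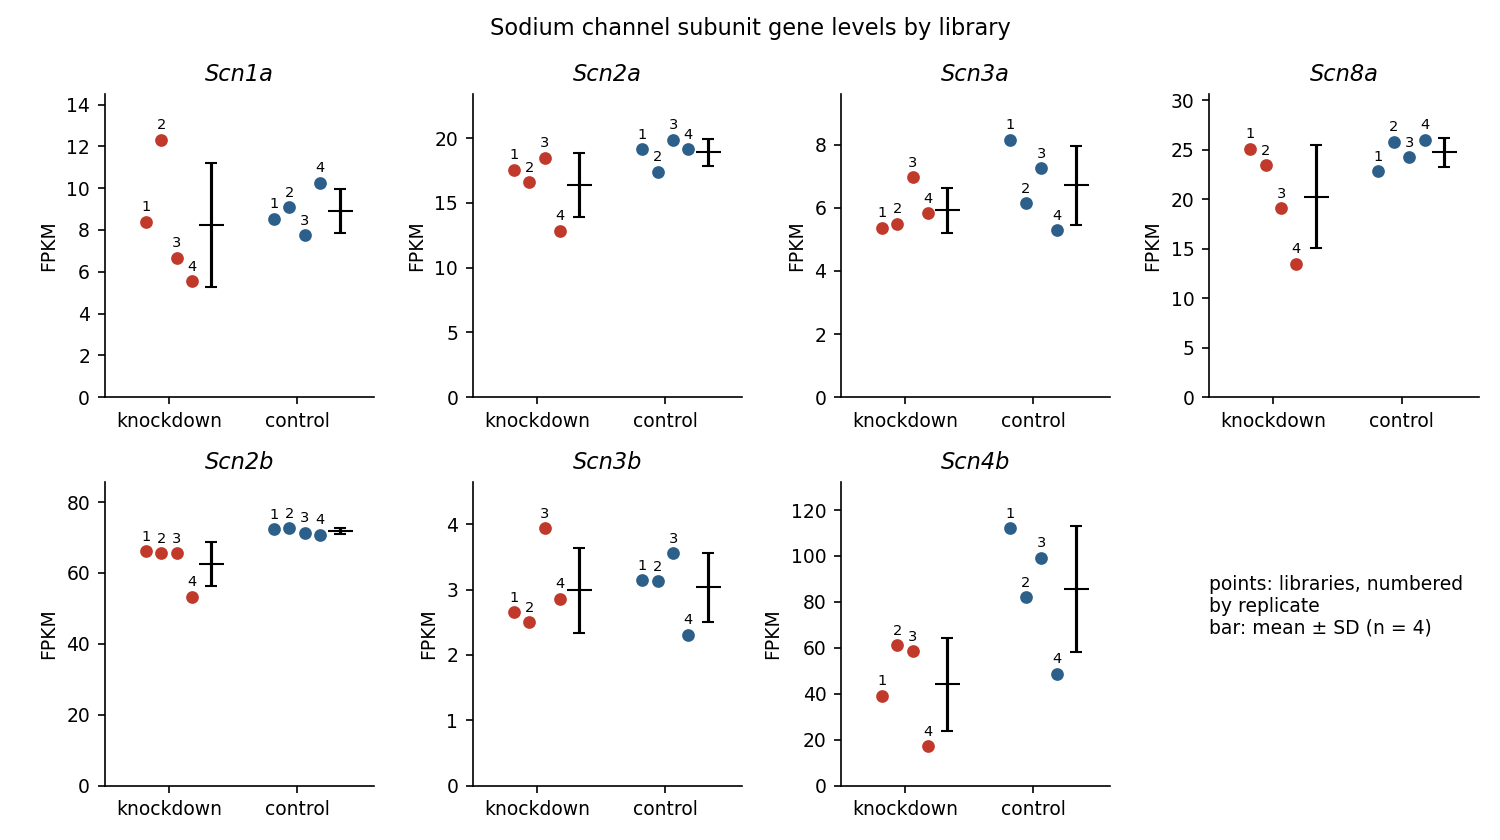
FPKM of the 7 sodium channel subunit genes in each library (points), with group means and SD, knockdown left of control, 4 libraries each. Scn2b is the gene whose groups do not overlap, at 53.3 to 66.1 FPKM in knockdown libraries and 70.8 to 72.6 FPKM in control libraries, and Scn4b spreads most, from 17.2 to 112 FPKM.

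All 7 genes had a lower mean log2 value in the knockdown group, where 45.1% of all tested genes did. No member passed the adjusted threshold, as no gene did. Scn2b and Scn4b, 2 of 7, were lower at an unadjusted p under 0.05, against 5.07% of all genes in that direction. That count was 1 of 7 with knockdown replicate 4 or control replicate 1, 2 or 3 left out, and 3 of 7 with knockdown replicate 2 or 3 left out. The median log2 difference of the 7 was -0.20, against 0.01 over all tested genes. In this bulk tissue, fewer cells of a type and less RNA per cell cannot be told apart.

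Scn8a encodes Nav1.6, the main alpha subunit of the distal initial segment and of nodes of Ranvier. It lies at chr15:100869858-101045938 on the plus strand (ENSMUSG00000023033.14). Its gene level was 25.1, 23.4, 19.1 and 13.5 FPKM in knockdown libraries and 22.8, 25.8, 24.3 and 25.99 FPKM in control libraries. Knockdown replicates 1 and 2 lay within the control range, and replicates 3 and 4 below it. The log2 difference was -0.31 ± 0.17 (SE, 4 against 4 libraries, 95% interval -0.70 to 0.08, limma adjusted p = 0.434), and it was -0.14 without knockdown replicate 4.

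Scn2a encodes Nav1.2, which in mature excitatory neurons sits in the proximal initial segment and supports backpropagation into dendrites. It lies at chr2:65620771-65767447 on the plus strand (ENSMUSG00000075318.12). Its level was 17.6, 16.6, 18.5 and 12.8 FPKM in knockdown libraries and 19.1, 17.4, 19.9 and 19.1 FPKM in control libraries. The groups overlapped, with knockdown replicate 4 the lowest of all. Knockdown minus control gave a log2 difference of -0.21 ± 0.10 (interval -0.44 to 0.03, limma adjusted p = 0.396), and it was -0.10 without that library.

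Scn1a encodes Nav1.1, loss of which in mice impairs firing of parvalbumin interneurons. It lies at chr2:66270778-66440840 on the minus strand (ENSMUSG00000064329.13). Its level was 8.40, 12.3, 6.68 and 5.54 FPKM in knockdown libraries and 8.55, 9.10, 7.74 and 10.3 FPKM in control libraries. The knockdown libraries held both the highest and the lowest value. The log2 difference was -0.15 ± 0.20 (interval -0.61 to 0.31, limma adjusted p = 0.749). It was -0.34 (unadjusted p = 0.0346) without knockdown replicate 2, -0.078 without knockdown replicate 3, -0.00059 without knockdown replicate 4 and -0.085 without control replicate 4. Array weights put it at 0.028, which turned its direction. The 12 markers of fast-spiking interneurons had a median log2 difference of -0.12, with 3 higher and 9 lower and none at an unadjusted p under 0.05, and their part in the level of Scn1a was not tested.

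Scn3a encodes Nav1.3, the alpha subunit of the embryonic brain, and lies beside Scn2a at chr2:65457118-65567627 on the minus strand (ENSMUSG00000057182.14). The levels were 5.37, 5.50, 6.96 and 5.82 FPKM in knockdown libraries and 8.15, 6.15, 7.25 and 5.28 FPKM in control libraries. All 4 knockdown values lay within the control range. Knockdown minus control gave a log2 difference of -0.15 ± 0.12 (interval -0.43 to 0.13, limma adjusted p = 0.593). It was -0.061 without control replicate 1 and -0.24 without control replicate 4, and it was 0.017 with the striatal score added to the fit, which turned its direction.

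The summed level of the 4 alpha genes was 56.4, 57.8, 51.2 and 37.7 FPKM in knockdown libraries and 58.7, 58.5, 59.1 and 60.7 FPKM in control libraries. Every knockdown sum was below every control sum, also among the 3 knockdown libraries other than replicate 4. The nearest were knockdown replicate 2 at 57.8 FPKM and control replicate 2 at 58.5 FPKM. Each of the 4 genes on its own had groups that overlapped. Of single genes, 3.22% of all tested had groups apart in the lower direction, and no such share was worked out for sums of 4 genes. The makeup of that sum differed little next to the spread. Scn8a made up 39.5% ± 3.86 of it in knockdown and 41.7% ± 2.26 in control libraries (SD, n = 4 each). Scn2a made up 32.5% ± 3.25 in knockdown and 31.9% ± 1.64 in control libraries. Scn1a made up 15.99% ± 3.64 in knockdown and 15.04% ± 1.62 in control libraries, and Scn3a 12.0% ± 2.99 in knockdown and 11.3% ± 2.24 in control libraries. These are descriptions of the deposited gene values, with no test, and the makeup by summed transcripts was not compared.

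Scn2b lies at chr9:45117782-45130070 on the plus strand (ENSMUSG00000070304.12), and encodes a disulfide-linked beta subunit with an immunoglobulin-like outer domain. Its level was 66.1, 65.6, 65.5 and 53.3 FPKM in knockdown libraries and 72.4, 72.6, 71.3 and 70.8 FPKM in control libraries. The groups did not overlap, which held in the lower direction for 3.22% of all genes, and Scn2b was 1 of 7 members to show it. No member had groups apart in the higher direction, which 5.93% of all genes had. Mean levels were 62.6 ± 6.22 FPKM in knockdown and 71.8 ± 0.843 FPKM in control libraries (SD, n = 4 each), 12.7% lower. The coefficient of variation was 9.93% in knockdown and 1.17% in control libraries. The log2 difference was -0.20 ± 0.07 (interval -0.36 to -0.04, unadjusted p = 0.0215, limma adjusted p = 0.298). Without knockdown replicate 4 it was -0.12 (unadjusted p = 0.00948, limma adjusted p = 0.386). With the striatal score added to the fit it was -0.14 (unadjusted p = 0.0995).

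Scn3b, at chr9:40269217-40291618 on the plus strand (ENSMUSG00000049281.16), encodes the beta subunit that binds the channel without a disulfide bond. Levels stood at 2.66, 2.50, 3.94 and 2.86 FPKM in knockdown libraries and 3.14, 3.13, 3.55 and 2.31 FPKM in control libraries. The groups overlapped throughout. Knockdown minus control gave a log2 difference of -0.02 ± 0.13 (interval -0.32 to 0.28, limma adjusted p = 0.959). Its sign depended on the library left out and on the gene value used: with the listed transcripts summed it was 0.27.

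Scn4b lies at chr9:45138395-45154152 on the plus strand (ENSMUSG00000046480.6), 8324 bases beyond the end of Scn2b. Its level was 39.2, 61.2, 58.7 and 17.2 FPKM in knockdown libraries and 112, 81.9, 99.2 and 48.8 FPKM in control libraries. The groups overlapped because control replicate 4 lay below knockdown replicates 2 and 3. Mean levels were 44.1 ± 20.4 FPKM in knockdown and 85.5 ± 27.4 FPKM in control libraries (SD, n = 4 each), 48.5% lower. The log2 difference was -1.03 ± 0.42 (interval -1.98 to -0.07, unadjusted p = 0.0379, limma adjusted p = 0.333). It was -0.64 (unadjusted p = 0.0697) without knockdown replicate 4.

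**Figure D2:**
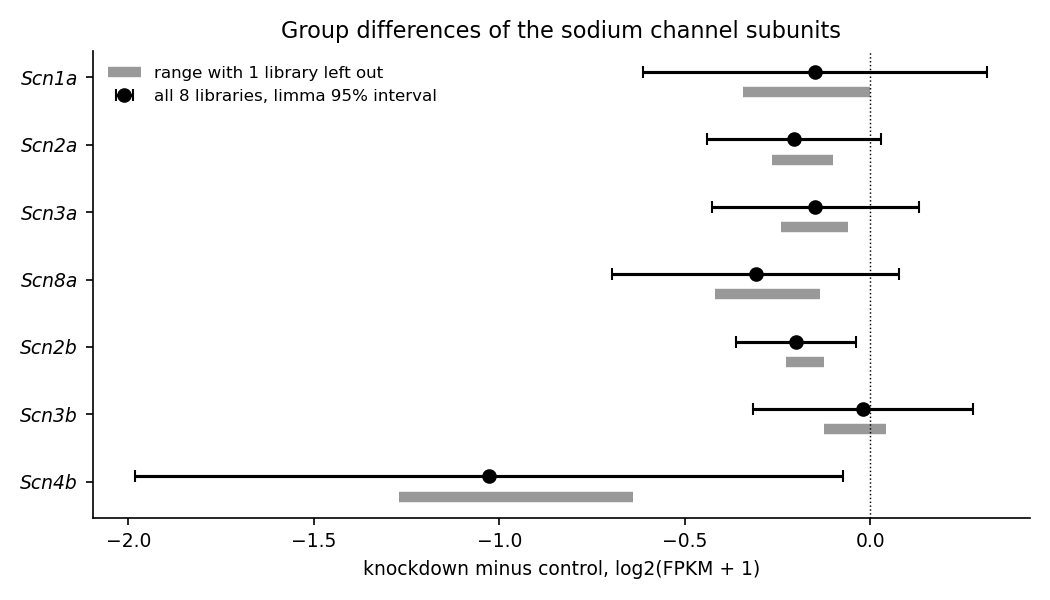
Log2 difference, knockdown minus control, of the 7 genes on log2(FPKM + 1), with 95% intervals from limma and the range over the 8 fits that each left out 1 library. Scn2b (-0.20) and Scn4b (-1.03) have intervals below 0, and the range of Scn1a ends next to 0.

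Scn4b varied between libraries together with the striatal markers. The striatal score of a library, the mean log2 deviation of the 22 markers from their 8-library means, was -0.72, -0.0016, 0.35 and -1.05 in the knockdown libraries and 0.95, 0.34, 0.80 and -0.67 in the control libraries. The 3 highest Scn4b values were in the control libraries with scores of 0.34 to 0.95, and the lowest was in the knockdown library with the lowest score. All 22 markers had a lower mean log2 value in knockdown, where 45.1% of all tested genes did. Their median log2 difference was -0.75 (-0.50 without knockdown replicate 4), and none had an unadjusted p under 0.05. With the score in the fit, the log2 difference of Scn4b was -0.39 (unadjusted p = 0.131, limma adjusted p = 0.645). The genes with the profile most like that of Scn4b over the 8 libraries, by root mean square difference of log2 deviations, were Ppp1r1b (0.21), Cd4 (0.24) and Drd1 (0.26), where the median gene was at 0.80. Ppp1r1b and Drd1, a protein phosphatase inhibitor and a dopamine receptor, belong to the striatal list. Knockdown replicate 3 and control replicate 2 had scores of 0.35 and 0.34, with Scn4b at 58.7 FPKM in that knockdown library and 81.9 FPKM in that control library. The part of striatal tissue in the difference was not tested beyond this covariate.

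**Figure D3:**
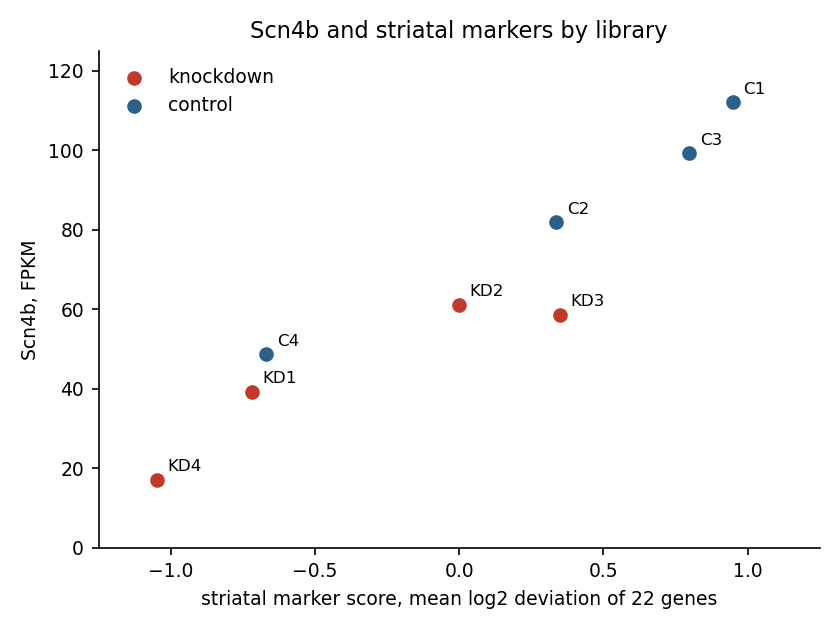
Scn4b level (FPKM) against the striatal marker score (mean log2 deviation of 22 marker genes) in each library, with knockdown libraries named KD and control libraries C. Points run from knockdown replicate 4 (17.2 FPKM, score -1.05) to control replicate 1 (112 FPKM, score 0.95), and control replicate 4 (48.8 FPKM, score -0.67) lies among the knockdown libraries.

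Library by library, knockdown replicate 4 was the lowest of 8 in 5 members: Scn8a, Scn4b, Scn1a, Scn2b and Scn2a. Control replicate 4 was the lowest of 8 in the other 2, Scn3b and Scn3a. Knockdown replicate 4 also had lower values in long genes. Genes with transcripts over 8000 bases had a median log2 deviation of -0.09 in it, while those of at most 1500 bases had 0.10. Knockdown replicate 2 ran the same way, at -0.06 and 0.03. All remaining libraries ran the other way, control replicate 1 most, at 0.06 and -0.04. By GC content, genes of at most 42% were at -0.07 in knockdown replicate 4 and 0.08 in control replicate 1. Genes over 54% were at 0.10 in knockdown replicate 4 and -0.08 in control replicate 1. Listed alpha transcripts run to 11436 bases, the length of Scn8a-204. With a per-library trend on length and GC content taken out, the log2 difference of Scn1a was -0.053, in place of -0.15, and that of Scn3a -0.050, also in place of -0.15. Under the same setting Scn8a was at -0.25, Scn2a at -0.14, Scn3b at -0.03, Scn2b at -0.18 (unadjusted p = 0.0197) and Scn4b at -1.04 (unadjusted p = 0.0361). The part of length and GC content in the values of the members was not tested beyond this.

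**Figure D4:**
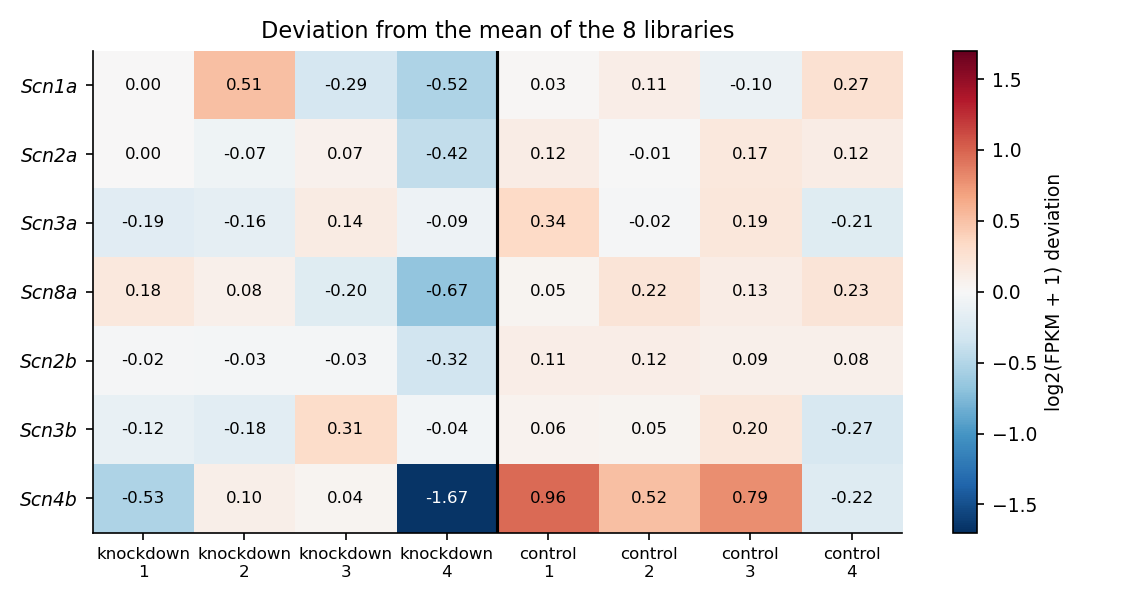
Deviation of each gene's log2(FPKM + 1) from its 8-library mean, knockdown libraries left of control libraries. Knockdown replicate 4 is below 0 in all 7 rows, down to -1.67 for Scn4b, and the control libraries are above 0 for Scn2b.

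Transcripts gave a less settled picture than genes. Of the 18 member transcripts, 11 were lower and 7 higher in knockdown, where 49.3% of all transcripts were lower. None passed the adjusted threshold, which 0.0256% of 23415 transcripts did. At an unadjusted p under 0.05, 3 were lower and 1 higher, where 3.76% of all transcripts were lower, 4.2% higher and 7.96% either. Of the 3 lower, Scn2b-202 and Scn4b-201 are the only listed transcripts of their genes, so their results repeat those of the genes. The groups did not overlap for Scn1a-203, Scn2b-202 and Scn8a-203, which were lower, and for Scn3b-207, which was higher; the shares of all transcripts were 2.66% lower and 3.04% higher. The deposited gene value was not the sum of its listed transcripts for the alpha genes, since it came to 0.517 to 0.779 of that sum.

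Scn1a-203, with the longest end of coding exon 11 and a coding sequence of 2009 codons, was at 3.73, 0.568, 1.83 and 0.940 FPKM in knockdown libraries and 4.64, 4.75, 3.73 and 8.35 FPKM in control libraries. The highest knockdown value and the lowest control value were equal to 3 digits. The log2 difference was -1.29 ± 0.37 (unadjusted p = 0.00887, limma adjusted p = 0.565). As a share of the listed Scn1a transcripts it was 29.7%, 3.44%, 17.9% and 12.5% in knockdown libraries and 38.02%, 35.3%, 33.5% and 63.3% in control libraries, a mean difference of -26.7 points. Scn1a-201, with the middle end, was at 2.74, 15.7, 2.79 and 5.35 FPKM in knockdown libraries and 2.71, 2.67, 2.996 and 1.43 FPKM in control libraries. Knockdown replicates 2 and 4 lay above the control range and the other knockdown libraries within it. Its log2 difference was 0.88, and 0.40 without knockdown replicate 2.

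Scn8a-203, with the downstream copy of exon 5, was at 13.3, 12.2, 11.2 and 0.122 FPKM in knockdown libraries and 15.3, 18.4, 20.6 and 19.4 FPKM in control libraries. All 4 knockdown values were below all control values, and knockdown replicate 4 was close to 0. Its share of the Scn8a transcripts differed by -18.8 points, and by -10.3 points without that library. Its log2 difference was -1.44 ± 0.80 (limma adjusted p = 0.656), and -0.55 without that library. Scn8a-201, with the upstream copy, was at 25.8, 24.3, 18.5 and 15.8 FPKM in knockdown libraries and 21.4, 23.9, 1.65 and 23.4 FPKM in control libraries, so its groups overlapped. In control replicate 3, Scn8a-204 held 18.7 FPKM, and at most 0.135 FPKM in the other libraries. As a share of the listed transcripts, Scn8a-201 was 64.9%, 65.9%, 60.9% and 85.3% in knockdown libraries and 57.5%, 56.2%, 4.01% and 54.1% in control libraries, 26.3 points higher, or 13.3 points without control replicate 3.

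Scn2a-205, with the downstream copy, was the leading Scn2a transcript in 8 of 8 libraries. It was at 16.9, 25.0, 23.2 and 14.8 FPKM in knockdown libraries and 27.1, 22.4, 27.3 and 26.6 FPKM in control libraries, with a log2 difference of -0.38 ± 0.17 (limma adjusted p = 0.630). Scn2a-201, with the upstream copy, was at 37.8%, 16.4%, 12.0% and 13.7% of the Scn2a transcripts in knockdown libraries and 11.6%, 10.3%, 9.92% and 8.69% in control libraries. Every knockdown share was above every control share. The mean difference was 9.84 points, and 3.89 points without knockdown replicate 1.

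Scn3a-202 led in 8 of 8 libraries, at 7.63 ± 2.001 FPKM in knockdown and 8.95 ± 2.36 FPKM in control libraries. Scn3b-207, a short transcript of 672 bases whose annotated coding sequence is incomplete, was at 2.10, 1.76, 3.04 and 3.17 FPKM in knockdown libraries and 1.40, 1.71, 1.32 and 1.31 FPKM in control libraries. All 4 knockdown values were above all control values, with a log2 difference of 0.51 ± 0.16 (unadjusted p = 0.0117, limma adjusted p = 0.565). Scn3b-203, of 215 codons, was at 1.92 ± 0.380 FPKM in knockdown and 2.03 ± 0.224 FPKM in control libraries.

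Over the 14 shares in the 5 genes with more than 1 listed transcript, the groups did not overlap for 5, where 3.7% of all transcript shares did so in either direction, 1.88% lower and 1.83% higher. These were Scn1a-203 and Scn8a-203, lower, and Scn2a-201, Scn8a-201 and Scn3b-207, higher. Each had the smallest p that 70 labelings of 4 of 8 libraries allow (exact two-sided permutation test, p = 0.0286), and none passed after Benjamini-Hochberg adjustment over the 14 (adjusted p = 0.08). Shares of 1 gene sum to a whole, so they are tied to each other. Grouping by exon copy was chosen after the values were seen. It adds up whole transcripts, which differ in other places too, and reads over the exon itself were not counted. Scn8a-201 is 11293 bases long and Scn8a-203 7030, while Scn2a-201 is 8935 and Scn2a-205 6348. The part of these other differences in the shares was not tested. The share of transcripts with the downstream copy of Scn8a was at 35.1%, 34.1%, 39.1% and 14.7% in knockdown libraries and 42.5%, 43.8%, 96.0% and 45.9% in control libraries. This is the remainder left by the Scn8a-201 share, so its test repeats that of Scn8a-201 and adds nothing to it (exact permutation adjusted p = 0.0857 over 3 grouped shares). The mean difference was -26.3 points, and -13.3 points without control replicate 3. For Scn2a it was at 57.1%, 83.6%, 71.3% and 66.0% in knockdown libraries and 77.8%, 72.1%, 76.1% and 76.8% in control libraries (exact permutation p = 0.371), with groups that overlapped. That mean difference was -6.18 points, -2.05 points without knockdown replicate 1 and -10.9 points without knockdown replicate 2. Stretches of 50 bases shared with another member made up 4.80% of the transcripts of Scn1a, 7.21% of Scn2a and 6.61% of Scn3a, and 0.0516% of Scn8a. How the authors' tool divided such reads, and reads common to the transcripts of a gene, was not given.

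Genes around the channels were examined by lists. Of 28 tested initial segment and node genes, several of which tether the channels to the axon, 8 were higher and 20 lower, with 2 higher and 9 lower at an unadjusted p under 0.05, where 9.1% of all genes were higher and 5.07% lower, and none past the adjusted threshold. Their median log2 difference was -0.14, against 0.01 over all genes. Without knockdown replicate 4 it was -0.06, with 8 higher and 20 lower, and 1 higher and 7 lower at an unadjusted p under 0.05. Ank3, which encodes the ankyrin that anchors the channels at the initial segment, was at 7.65 ± 1.04 FPKM in knockdown and 10.1 ± 0.933 FPKM in control libraries (log2 difference -0.37, limma adjusted p = 0.266). Chl1, an adhesion molecule, was at 9.11 ± 2.18 FPKM in knockdown and 12.6 ± 1.05 FPKM in control libraries (-0.45, limma adjusted p = 0.280). Without knockdown replicate 4, Ank3 was at -0.28 and Chl1 at -0.32. Epb41l3, a membrane skeleton protein, was at 14.5 ± 0.728 FPKM in knockdown and 16.6 ± 0.300 FPKM in control libraries, and Lgi1, a secreted protein, at 3.87 ± 0.374 FPKM in knockdown and 4.71 ± 0.133 FPKM in control libraries.

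Of 28 channel partners, 17 were higher and 11 lower, with a median log2 difference of 0.04. At an unadjusted p under 0.05, 2 were higher and 3 lower, which is 2 and 3 of 28 where 9.1% of all genes were higher and 5.07% lower. Without knockdown replicate 4 these counts were 1 and 2. Fgf14, an intracellular factor that binds the tail of the alpha subunit, was at 9.67 ± 1.47 FPKM in knockdown and 11.8 ± 0.608 FPKM in control libraries (log2 difference -0.27, or -0.16 without knockdown replicate 4). Of 20 regulators of channel messages, RNA-binding proteins and the transcriptional repressor Rest, 11 were higher and 9 lower, with a median log2 difference of 0.02, and 2 were higher and 3 lower at an unadjusted p under 0.05, beside the same 9.1% and 5.07% of all genes. Mbnl2, a splicing regulator, was at 9.58 ± 1.37 FPKM in knockdown and 12.4 ± 0.948 FPKM in control libraries (-0.34, or -0.25 without knockdown replicate 4), and Nova2, another, at 15.1 ± 0.699 FPKM in knockdown and 13.5 ± 0.314 FPKM in control libraries (0.15). None of these passed the adjusted threshold.

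Of 11 other sodium channel genes, 6 were measured at the mean of 0.5 FPKM used here, of which 2 were higher and 4 lower. Unc79, a part of the sodium leak channel complex, was at 4.80 ± 0.111 FPKM in knockdown and 5.50 ± 0.300 FPKM in control libraries, with a log2 difference of -0.16 (limma adjusted p = 0.266). Nalcn, the pore of that complex, was at 7.32 FPKM in knockdown and 8.08 FPKM in control libraries.

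Of the other cell types, all 14 oligodendrocyte markers had a lower mean log2 value in knockdown, where 45.1% of all tested genes did. Their median log2 difference was -0.22, and none had an unadjusted p under 0.05. Their summed level was 699 to 1400 FPKM in knockdown libraries and 1033 to 1295 FPKM in control libraries. Without knockdown replicate 4 the median was -0.04, with 2 higher and 12 lower. The 16 cortical excitatory markers had a median of 0.10, with 11 higher and 5 lower, and the 10 astrocyte markers 0.10, with 9 higher and 1 lower. Of the 10 astrocyte markers, 2, Gja1 and Sox9, were higher at an unadjusted p under 0.05, where 9.1% of all genes were. The limma adjusted p was 0.266 for Gja1 and 0.291 for Sox9. Cspg4 was likewise higher, 1 of 8 precursor markers, beside the same 9.1% of all genes (limma adjusted p = 0.298). Without knockdown replicate 4, 6 astrocyte markers were higher and 4 lower, with a median of 0.05. The medians were 0.04 for 8 oligodendrocyte precursor markers, 0.05 for 9 microglial markers and -0.03 for 7 endothelial markers. Without that library the microglial median was -0.04. The part of these cells in the levels of the sodium channel genes was not tested.

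By the same measure of likeness used for Scn4b, Scn2b was nearest to Camk1d (0.0351), Ccser2 (0.0359) and Lmbrd2 (0.0380), where the median gene was at 0.18. Scn2a was nearest to Atl2 (0.0359), Scn8a to Adcy9 (0.0792), Scn1a to Igfbp4 (0.12), Scn3a to Grm5 (0.0382) and Scn3b to Cyp2d22 (0.0824).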

How the data were processed

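RNA from 8 libraries was quantified as FPKM by the authors, in deposited tables of genes and transcripts, using FastQC, cutadapt, HISAT2 and StringTie (no versions), per the submitters' processing notes. Their genome build was not given in the sources used here. Identifiers of 11493 of 13130 genes (87.5%) matched GENCODE M21 with identical coordinates, so coordinates are on GRCm38. Sequences were read from that release.

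Values were taken to log2(FPKM + 1), which understates changes of low genes. Features averaging 0.5 FPKM or more across all 8 libraries were tested with limma 3.58.1 in R 4.3.3 (trend and robust, two-sided), with Benjamini-Hochberg adjustment over 13004 genes or 23415 transcripts; tables were made in Python 3.11.15. Shares were compared by exact permutation. The fit was tested on simulated data. Nothing in the labels says that libraries came from separate animals, so p-values measure the spread between libraries. Members, all of which are reported, and lists were chosen with earlier results of these data known; from each list up to 4 genes with the smallest p could be named, and for likeness the 3 nearest with a mean of at least 1 FPKM. The labels do not say whether replicate numbers pair the libraries, and the main fit did not pair them. Alternatives covered the pseudocount, filter, scaling, library weights, replicate block, length and GC trend, striatal score, summed transcripts and each library left out.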

Additional observations from a re-analysis of the deposited data

Results flagged for a closer look

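Of 74 groups of 4 values examined, 17 held a library far from the other 3. Of the 17, 5 were in knockdown replicate 4 and 4 in control replicate 3. The cutoff is passed by about 1 in 20 independent, normally distributed groups. These groups are not independent, since levels and shares of the same transcripts are both counted, so that rate does not apply to them. At the gene level the only such value was Scn2b in knockdown replicate 4, at 53.3 FPKM, where the other knockdown libraries were at 65.5 to 66.1 FPKM.

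Among transcripts in the knockdown group, Scn3a-201 was at 2.57 FPKM in replicate 2, Scn8a-203 at 0.122 FPKM in replicate 4 and Scn8a-205 at 2.59 FPKM in replicate 4. In the control group, Scn2a-205 was at 22.4 FPKM and Scn3a-201 at 2.06 FPKM in replicate 2. Scn8a-201 was at 1.65 FPKM and Scn8a-204 at 18.7 FPKM in control replicate 3, and Scn3b-203 was at 1.701 FPKM in control replicate 4. Scn3a-201 was thus high in replicate 2 of both groups.

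Among shares in the knockdown group, Scn2a-201 made up 37.8% in replicate 1 and Scn3a-201 33.7% in replicate 2, while Scn8a-203 made up 0.656% and Scn8a-205 13.98% in replicate 4. In the control group, Scn3a-201 made up 24.04% in replicate 2, Scn8a-201 4.01% and Scn8a-204 45.6% in replicate 3, and Scn1a-203 63.3% in replicate 4.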

How the results depend on the processing

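No member gene, transcript or share passed the adjusted threshold under any alternative run. For shares this was nearly fixed in advance. The smallest exact permutation p that 8 libraries allow is 0.0286, and 14 shares, tied within genes, were adjusted together. With the striatal score added to the fit, 1120 genes had an unadjusted p under 0.05 in place of 1842, and 0 members in place of 2; Scn3a was then at 0.017, Scn3b at 0.14 and Scn3b-203 at 0.039. Array weights put Scn1a at 0.028, and summed transcripts put Scn3b at 0.27. Rescaling by median of ratios split the genes at an unadjusted p under 0.05 into 964 higher and 839 lower, and quantile normalization into 990 and 838, in place of 1183 and 659. Transcripts at a mean under 1 FPKM gave no value under that filter. With each library left out in turn, genes past the adjusted threshold numbered 0 to 2 and transcripts 9 to 22 (6 with all libraries); at an unadjusted p under 0.05 there were 1199 to 2173 genes, 1431 to 2399 transcripts, 1 to 3 member genes and 2 to 5 member transcripts. Over the same fits the log2 difference ran from -0.13 to 0.043 for Scn3b, -0.88 to 0.028 for Scn1a-202, -0.16 to 0.23 for Scn2a-204, -0.31 to 0.45 for Scn3a-201 and -0.14 to 0.94 for Scn8a-201. Share differences ran from -10.1 to 7.70 points for Scn1a-202, -0.25 to 1.37 for Scn2a-204, -5.03 to 8.62 for Scn3a-201 and -15.1 to 0.0315 for Scn8a-204. Whether the replicate numbers pair the libraries is not known. Correlations of same-numbered deviations were -0.185, -0.0723, 0.200 and -0.0174, and those of differently numbered libraries ran from -0.217 to 0.191. With the replicate block 1660 genes had an unadjusted p under 0.05, 4 transcripts and 0 genes passed the adjusted threshold, and no member's call changed. The block narrowed the error of Scn4b, at -1.03 ± 0.20 (limma unadjusted p = 0.00314, adjusted p = 0.355). The depth is unknown, so low transcripts carry no counting error.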
